A study of Homo sapiens with 2 samples.

Results

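The expression of 10 genes that mark or control the epithelial and mesenchymal states (CDH1, EPCAM, CDH2, VIM, FN1, SNAI1, SNAI2, ZEB1, ZEB2 and TWIST1) was examined after SUB1 knockdown in PC3, an established cell line from metastatic prostate cancer. The members were taken by gene name, together with their older names, from the gene probes of Agilent whole human genome arrays. They have 15 of the 41000 gene probes, with EPCAM listed under its older name TACSTD1, and 14 of these passed the filter on dim probes, so that all 10 genes were among the 19218 genes measured. SUB1, also called positive cofactor 4, is a transcriptional coactivator. PC3 cells were transfected with either of 2 SUB1 siRNA duplexes or with non-targeting (Non-T) siRNA, transfected again 24 h later, and harvested 72 h after the first transfection. Each of the 2 arrays compared 1 SUB1 siRNA (Cy5) with Non-T siRNA (Cy3), and the dyes were not swapped, so the dye and the knockdown cannot be told apart in any ratio. Each siRNA has 1 array, and the sources used here do not say whether the Non-T RNA of both came from 1 extract. Values of a single siRNA therefore have no biological replicate, and the comparisons with siRNA 1 and siRNA 2 share their control condition.

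Epithelial cells hold on to each other through E-cadherin, the product of CDH1, and EPCAM is a further adhesion molecule of their surface. In epithelial-mesenchymal transition, a programme of development that carcinoma cells can use for invasion, E-cadherin is lost while N-cadherin (CDH2), the intermediate filament vimentin (VIM) and the matrix protein fibronectin (FN1) are gained. The zinc-finger factors SNAI1, SNAI2, ZEB1 and ZEB2 repress CDH1 through E-box sequences, and TWIST1 is a basic helix-loop-helix factor of the same programme. PC3 is known as a line with mesenchymal traits, including abundant vimentin. As invasion and migration were among the properties examined after SUB1 knockdown in the study, these genes ask whether the transcripts of either state moved with it.

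SUB1 itself was lower on both arrays. Its brightest probe had normalized log2 signals of 13.08 and 12.89 in Non-T cells and of 9.79 and 9.63 in cells treated with siRNA 1 and siRNA 2, so that 10.2% and 10.4% of the Non-T signal was left. Further SUB1 probes had 7.4% and 8.9% left, 9.8% and 11.2%, and, for the dimmest, 28.6% and 33.8%. Tested over both siRNAs with limma, SUB1 was the only one of 19218 genes past an adjusted p of 0.05 (mean log2 ratio -3.28, standard error 0.095, adjusted p 0.0248). With Feature Extraction's processed signals, the authors' log2 ratios, median centring, median spot signals or no background correction, no gene passed, SUB1 included. The fit has no term for the spread among Non-T samples. Of the 157 genes past 2-fold with siRNA 1, 40 were higher than in Non-T cells, as were 118 of 323 with siRNA 2. When loess was replaced by centring the arrays on their medians, 137 of 193 were higher with siRNA 1 and 266 of 367 with siRNA 2. By Feature Extraction's processed signals these counts were 778 of 1075 and 997 of 1468, and by the authors' log2 ratios 58 of 158 and 148 of 312. Of 8 markers chosen for PC3, 7 (KRT8, KRT18, KRT19, KRT7, EGFR, CAV1 and CD44) were well above background in every channel, and PSCA was not. In every channel 2 of 6 leukocyte markers (CD3E and CD14), 1 of 5 endothelial markers (PECAM1) and 3 of 6 fibroblast markers (DCN, LUM and COL1A1) were well above background, whereas PTPRC, CDH5, VWF and PDGFRB were not. The fibroblast markers with signal had ratios of -0.19 and -0.11 (DCN), 0.47 and -0.23 (LUM) and 0.66 and 0.45 (COL1A1) with siRNA 1 and siRNA 2. Of the PC3 markers, KRT7 (-0.66 and -0.76), CAV1 (-0.43 and -0.62), EGFR (-0.49 and -0.19) and KRT8 (-0.067 and -0.19) were lower on both arrays. So was CD44, described with the mesenchymal genes. KRT18 (0.19 and -0.23) and KRT19 (0.20 and -0.094) had opposite signs with the siRNAs. The part of these markers in the results was not tested. On 1 array spots of the same probe differed little. Over 209 probes with 10 spots the median SD of the log2 ratio was 0.078 with siRNA 1 and 0.074 with siRNA 2.

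None of the 10 genes was changed 2-fold with either siRNA. A change of at least 2-fold in either direction was found for 0.817% of all genes with siRNA 1 and for 1.68% with siRNA 2, so a count of 0 in 10 genes is near this background. In limma's test over both siRNAs, 0 of the 10 genes passed an adjusted p of 0.05 (0.0052% of all genes did). At an unadjusted p under 0.05, 4 of the 10 were called, CDH1 and CDH2 higher and VIM and FN1 lower (after median centring VIM was not lower with siRNA 1), beside 20.9% of all genes (11% higher and 9.91% lower). The adjusted p of these 4 genes in limma was 0.195 for CDH1, 0.191 for CDH2, 0.170 for VIM and 0.157 for FN1. The median log2 ratio of the members was 0.014 (siRNA 1) and -0.034 (siRNA 2), beside 0.024 for all genes on either array. Ratios were thus small, but several of them were larger than the technical spread. In what follows, the technical SD of a probe with 1 spot is the median SD among spots of the 50 probes with 10 spots nearest to it in intensity. It covers error within an array and not the difference between cultures.

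**Figure D1:**
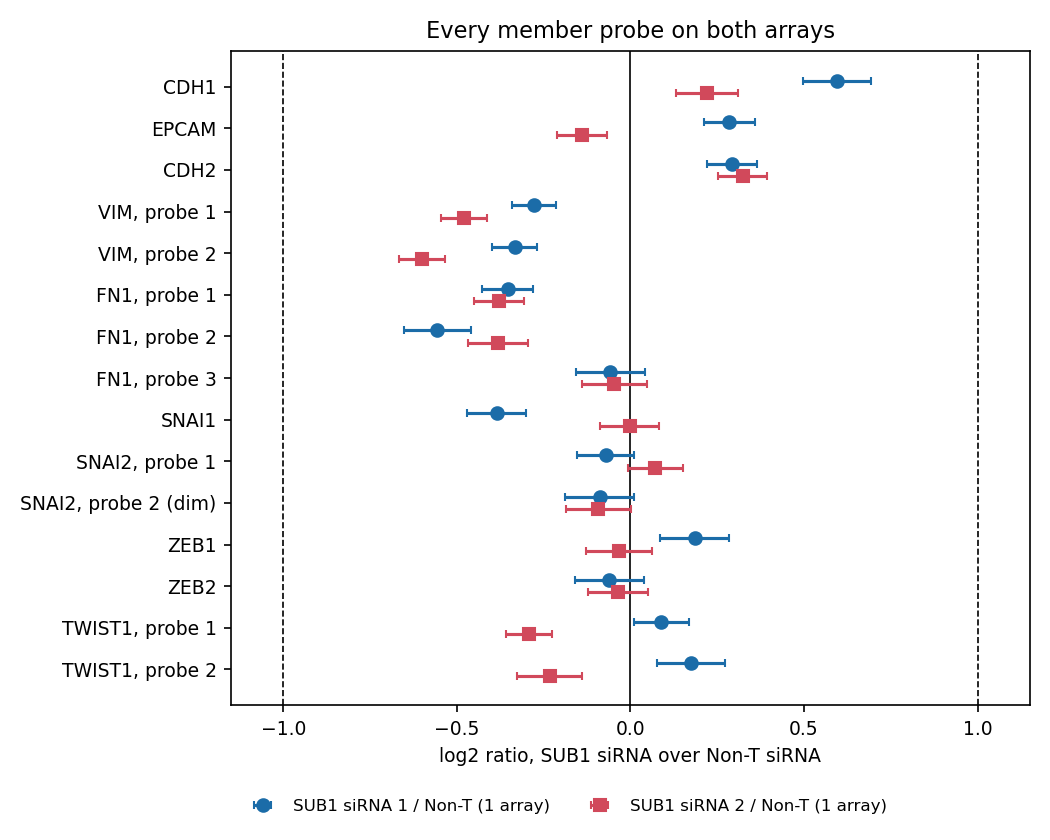
Log2 ratio of knockdown to Non-T cells (x axis) for each of the 15 member probes (y axis, brightest probe of a gene first), with siRNA 1 as circles and siRNA 2 as squares. Bars are the technical SD at the intensity of the probe, dashed lines mark a 2-fold change, and no probe reaches it. VIM and the brighter pair of FN1 probes lie left of 0 and CDH2 and CDH1 right of it with both siRNAs. Under other processing VIM with siRNA 1 (median centring, 0.15) and CDH1 with siRNA 2 (the authors' log2 ratios, -0.045) lie on the other side.

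The members that had the same direction with both siRNAs by more than the technical SD were the structural genes FN1, VIM, CDH2 and CDH1, of which VIM (siRNA 1, median centring) and CDH1 (siRNA 2, the authors' log2 ratios) changed sign under another processing. Of the 10 members, 2 were above 0 and 4 below 0 with both siRNAs, beside 7313 and 5831 of all 19218 genes. The SD of the ratios over all genes was 0.296 (siRNA 1) and 0.338 (siRNA 2), well above the technical SDs. The share of all genes that meets both conditions was not counted, so this does not set the named members apart from other genes. RefSeq promoters (GRCh38.p14) were at hand for 5 of the 10 members (CDH2, VIM, FN1, ZEB1 and ZEB2). The 120 bases before the first listed start of FN1, VIM and CDH2 are shown. These are the members with a promoter entry that shared a direction on both arrays by more than the technical SD. Capitals mark GC boxes, searched as GGGCGG on either strand. They also mark TATA boxes, searched as TATAAA on either strand, and CCAAT boxes on either strand. The FN1 stretch is chr2:215436069-215436188 (minus strand), the VIM stretch chr10:17228121-17228240 (plus strand) and the CDH2 stretch chr18:28177131-28177250 (minus strand).
FN1: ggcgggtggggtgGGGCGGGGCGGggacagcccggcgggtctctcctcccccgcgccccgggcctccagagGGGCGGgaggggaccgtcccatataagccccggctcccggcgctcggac
VIM: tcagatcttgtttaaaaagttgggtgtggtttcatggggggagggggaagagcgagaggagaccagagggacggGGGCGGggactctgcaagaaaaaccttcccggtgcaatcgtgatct
CDH2: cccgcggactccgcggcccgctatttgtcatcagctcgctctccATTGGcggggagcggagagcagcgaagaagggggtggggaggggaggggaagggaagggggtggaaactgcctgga
FN1 had 3 GC boxes, the first pair of them overlapping, and VIM had 1. CDH2 had no GC box and 1 CCAAT box, and none of the stretches held the exact sequence TATAAA. The search does not cover variants of the TATA box, such as the ATATAA in the FN1 stretch. Over 35116 promoters of the same length, 34% held a GC box, 20.4% a CCAAT box and 5.63% the exact TATAAA. The E-box CACCTG, the sequence that SNAI and ZEB factors bind, was on neither strand of the 250 bases before any listed start of FN1, VIM, CDH2 or ZEB2. It was in 2 of the 7 ZEB1 entries, beside 17.5% of all promoters. These matches describe the sequence only, and binding was not measured here.

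Fibronectin, a glycoprotein of the extracellular matrix, was lower with both siRNAs. The FN1 probe with 10 spots (hg18 chr2:215934577-215934978, NM_212482) had normalized log2 signals of 9.87 and 9.86 in Non-T cells on the siRNA 1 and siRNA 2 array, of 9.51 with siRNA 1 and of 9.48 with siRNA 2. Both knockdown signals were below both Non-T signals, and the Non-T signals were nearly equal. The log2 ratio was -0.35 with siRNA 1 (SD 0.060 among 10 spots, from -0.46 to -0.29) and -0.38 with siRNA 2 (SD 0.068, from -0.47 to -0.29), and so every spot was below 0 on each array. This left 78.3% and 76.9% of the Non-T signal. A second, dimmer probe of FN1 (chr2:215943371-215944906) had -0.56 and -0.38, in the same direction. The remaining FN1 probe (chr2:215996462-215997140), designed on transcript variant 7 (NM_054034), had -0.059 and -0.046, within its technical SD of 0.099 and 0.094, and its Non-T signal was not well above background on either array. The mean log2 ratio of FN1 was -0.37 (standard error 0.095, adjusted p 0.157 in limma), below that of all but 7.59% of genes. FN1 was lower with both siRNAs under each of 10 alternative ways of processing, from -0.36 to -0.14 with siRNA 1. Of these, other filters and kept outliers returned the reported ratios and add nothing to the count.

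Vimentin, the intermediate filament protein of mesenchymal cells, was lower with both siRNAs after loess, and by more with siRNA 2. The brighter VIM probe (hg18 chr10:17318353-17319262, NM_003380) had log2 signals of 15.16 and 15.20 in Non-T cells, of 14.88 with siRNA 1 and of 14.71 with siRNA 2. Both knockdown signals were below both Non-T signals, and the log2 ratios of -0.28 and -0.48 were larger than the technical SDs of 0.064 and 0.066. The other VIM probe (chr10:17317191-17317250) had -0.33 with siRNA 1 and -0.600 with siRNA 2, or 79.3% and 66.0% of its Non-T signal. The probes therefore gave the same order, with siRNA 2 below siRNA 1 by 0.20 and 0.27. The mean log2 ratio was -0.38 (standard error 0.106, adjusted p 0.170 in limma). The direction of VIM depended on the normalization. After median centring the ratios were 0.15 with siRNA 1 and -0.031 with siRNA 2, while Feature Extraction's processed signals gave -0.37 and -0.597 and the authors' log2 ratios -0.29 and -0.46.

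**Figure D2:**
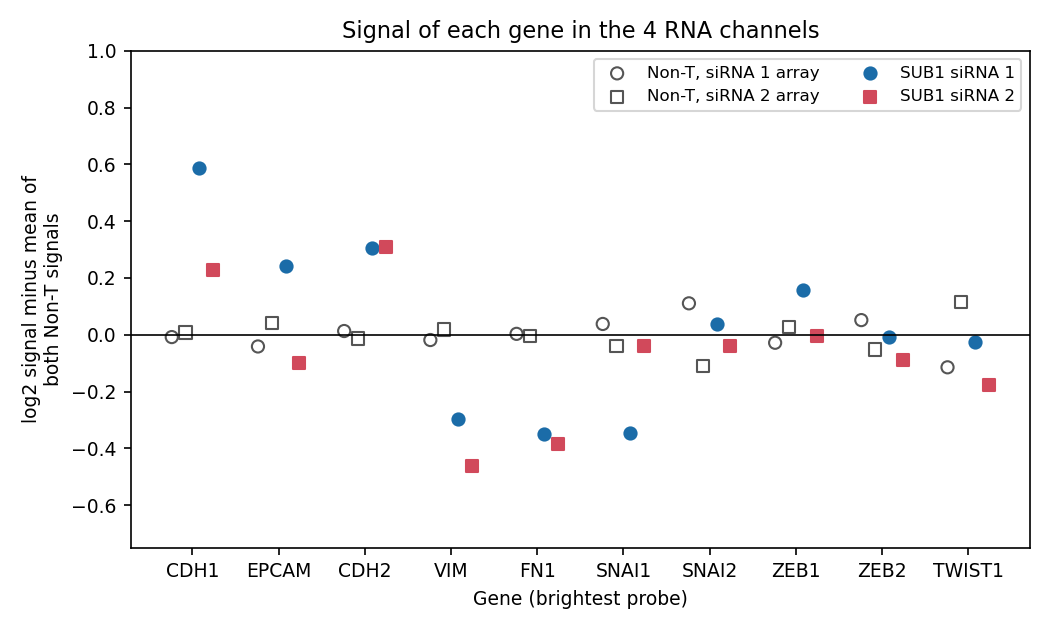
Normalized log2 signal of the brightest probe of each member (x axis) in the 4 RNA channels, minus the mean of its Non-T signals (y axis, log2). Open symbols are Non-T cells on the siRNA 1 (circle) and siRNA 2 (square) array, and filled symbols are SUB1 siRNA 1 (circle) and siRNA 2 (square). For FN1 and VIM both filled symbols lie below the open ones, and for CDH1 and CDH2 above them, as normalized by loess (VIM with siRNA 1 and CDH1 with siRNA 2 turn under another processing). For TWIST1 and SNAI2 the Non-T signals differ by 0.23 and 0.22 between the arrays.

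Among the cadherins, N-cadherin had ratios opposite to those of vimentin and fibronectin. The CDH2 probe (hg18 chr18:23786079-23786138, NM_001792) had log2 signals of 9.82 and 9.80 in Non-T cells and of 10.12 with each siRNA. The ratios of 0.29 with siRNA 1 and 0.32 with siRNA 2 were larger than the technical SDs of 0.072 and 0.070 and differed from each other by 0.031. Signal with the siRNAs was 122% and 125% of that in Non-T cells. The mean log2 ratio was 0.31 (standard error 0.095, adjusted p 0.191 in limma). CDH2 was higher with both siRNAs under all 10 alternatives, up to 0.54 with siRNA 1 (the authors' log2 ratios) and 0.55 with siRNA 2 (median centring). Of these, other filters, kept outliers and averaged probes returned the reported ratios and add nothing to the count.

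E-cadherin was higher with both siRNAs, and by more with siRNA 1. The CDH1 probe (hg18 chr16:67426715-67426774, NM_004360), spotted 10 times, had log2 signals of 6.91 and 6.92 in Non-T cells, of 7.50 with siRNA 1 and of 7.14 with siRNA 2. Both knockdown signals were above both Non-T signals, which differed by 0.016. The ratio was 0.59 with siRNA 1 (SD 0.089 among 10 spots, from 0.49 to 0.73), 1.51-fold higher than in Non-T cells and above the ratios of 97.7% of genes. With siRNA 2 it was 0.22 (SD 0.122, from 0.073 to 0.47), above 78.4% of genes. All 10 spots were above 0 on each array, and the lowest spot with siRNA 1 was above the highest with siRNA 2. The spots are technical repeats, so this sets the arrays apart and not the duplexes. The mean log2 ratio over both siRNAs was 0.41 (standard error 0.129, adjusted p 0.195 in limma). The size of the CDH1 ratio depended on the processing. Without background correction it was 0.55 with siRNA 1, close to the 0.59 above. With siRNA 1 it was also 0.77 with a normexp offset of 16 in place of 50, 1.06 (past 2-fold) with Feature Extraction's processed signals and 0.28 in the authors' log2 ratios. With siRNA 2 these were 0.31, 0.46 and -0.045, so that the direction with siRNA 2 turned in the authors' values.

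**Figure D3:**
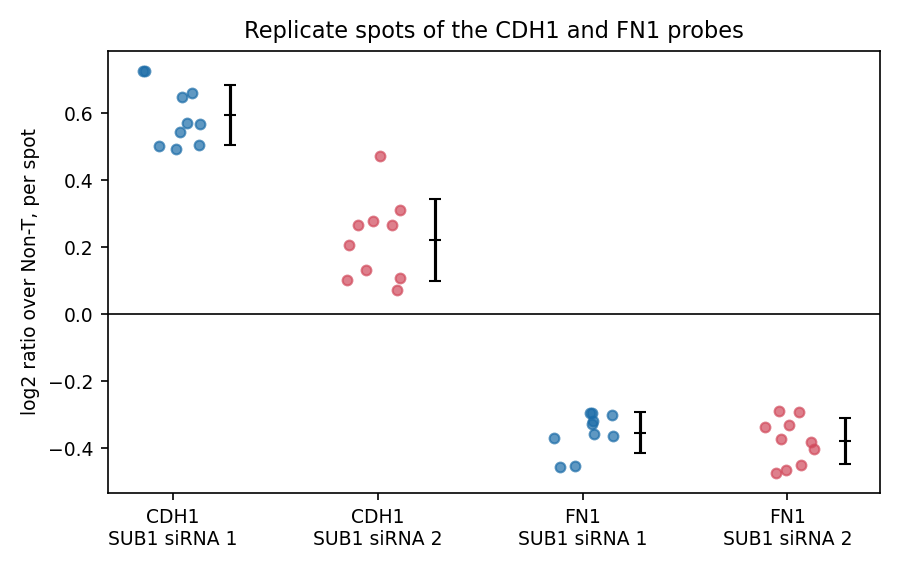
Log2 ratio over Non-T siRNA (y axis) of each of the 10 replicate spots of the CDH1 and the FN1 probe on the siRNA 1 and siRNA 2 arrays (x axis), with the mean and SD among spots in black. All CDH1 spots lie above 0 and all FN1 spots below 0. The CDH1 spots of the arrays do not overlap, whereas those of FN1 do.

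EPCAM differed in direction between the siRNAs. Its probe (hg18 chr2:47467398-47467457, NM_002354) had log2 signals of 9.74 and 9.82 in Non-T cells, 10.02 with siRNA 1 and 9.68 with siRNA 2. The siRNA 1 signal lay above both Non-T signals and the siRNA 2 signal below both. The ratios were 0.28 (technical SD 0.074) and -0.14 (technical SD 0.072), with a mean of 0.072 and an adjusted p of 0.794 in limma, and with siRNA 2 the ratio was 0.079 after median centring. The epithelial adhesion genes thus shared a higher signal with siRNA 1, at 1.51-fold for CDH1 and 1.22-fold for EPCAM, and were closer to Non-T cells or below them with siRNA 2.

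Of the transcription factors, SNAI1 (hg18 chr20:48038577-48038636, NM_005985) was lower with siRNA 1 and not with siRNA 2. It had log2 signals of 7.89 and 7.81 in Non-T cells, of 7.51 with siRNA 1 and of 7.81 with siRNA 2. The siRNA 1 signal alone was below the others. The ratios were -0.38 (technical SD 0.085) and -0.0018 (technical SD 0.085), with a mean of -0.19 and an adjusted p of 0.446 in limma. With siRNA 1 SNAI1 was lower under all 10 alternatives, from -0.48 to -0.27, of which other filters, kept outliers and averaged probes returned the reported ratio. This was the array with the higher CDH1 ratio, a description of 1 array with no test. The other factors did not share the lower ratio of SNAI1 there. ZEB1 (0.19, close to background) and TWIST1 (0.088) were above 0 by more than the technical SD, and SNAI2 (-0.072) and ZEB2 (-0.061) were within it.

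TWIST1, the basic helix-loop-helix factor, had ratios past the technical SD with both siRNAs, in opposite directions. The brighter probe (hg18 chr7:19122025-19122084, NM_000474) had log2 signals of 8.91 and 9.14 in Non-T cells, 9.002 with siRNA 1 and 8.85 with siRNA 2. The ratios were 0.088 with siRNA 1 and -0.29 with siRNA 2 (technical SDs 0.079 and 0.067), and the mean was -0.10 with an adjusted p of 0.683 in limma. The siRNA 1 signal was between those of Non-T cells on the arrays, which themselves differed by 0.23, so the larger part of the gap of 0.38 between the ratios lay in the Non-T channel. A dimmer TWIST1 probe (chr7:19122170-19122229) had 0.17 and -0.23. Its Non-T signal was not well above background on either array, so the size of these ratios is uncertain.

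SNAI2, ZEB1 and ZEB2 were close to Non-T cells. The SNAI2 probe for NM_003068 (hg18 chr8:49993263-49993322) had log2 signals of 8.09 and 7.87 in Non-T cells, 8.02 with siRNA 1 and 7.94 with siRNA 2, and both knockdown signals were between those of Non-T cells. Its ratios of -0.072 and 0.072 were within the technical SDs of 0.082 and 0.081. A second SNAI2 probe was not well above background in any channel and is the member probe that did not pass the filter. ZEB2 (chr2:144862731-144862790, NM_014795) had log2 signals of 7.28 and 7.18 in Non-T cells, 7.22 with siRNA 1 and 7.14 with siRNA 2, and its ratios of -0.061 and -0.036 were also within the technical SD. ZEB1 (chr10:31852945-31853004, NM_030751) had signals close to background. They were 6.45 and 6.50 in Non-T cells, 6.63 with siRNA 1 and 6.47 with siRNA 2, and the Non-T signal on the siRNA 2 array was not well above background. The ZEB1 ratio was 0.19 with siRNA 1 (technical SD 0.099) and -0.033 with siRNA 2 (technical SD 0.094). In limma the adjusted p was 0.9995 for SNAI2, 0.710 for ZEB1 and 0.798 for ZEB2. With siRNA 1 the ZEB1 ratio was above 0 under the 9 alternatives that gave a value, from 0.096 to 0.29. Leaving out the filter, keeping outliers and averaging probes returned the reported ratio.

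**Figure D4:**
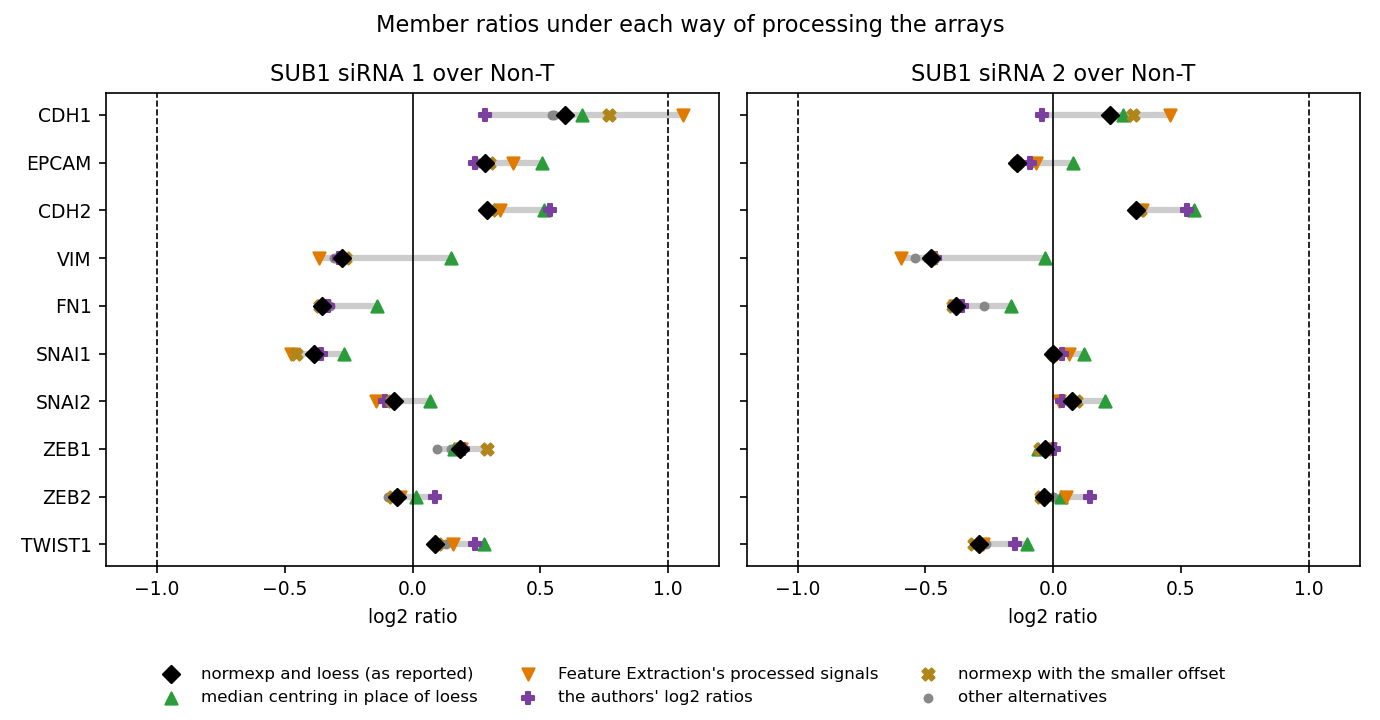
Log2 ratio of SUB1 siRNA 1 (left) and SUB1 siRNA 2 (right) over Non-T siRNA (x axis) for each member (y axis) as reported (black diamonds) and under the alternatives (coloured symbols and small grey dots), with a grey bar over their range and dashed lines at 2-fold. CDH1 with siRNA 1 ranges from 0.28 to 1.06 and VIM with siRNA 1 from -0.37 to 0.15, while FN1 stays left and CDH2 right of 0 on both arrays.

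Other genes of the programme were taken as 4 lists. They held epithelial junction, keratin and splicing genes (30 of 36 measured) and mesenchymal matrix and cytoskeletal genes (24 of 30). A list of regulators (20 of 24) held further transcription factors, cofactors and other proteins such as FBXW7 and PAK1. The signalling list held TGF-beta, BMP and Notch signalling genes (20 of 26). The median log2 ratio of the epithelial list was -0.013 (siRNA 1) and -0.069 (siRNA 2). The mesenchymal list had 0.15 and -0.11, the regulator list -0.15 and 0.085, and the signalling list 0.13 and -0.066, beside 0.024 for all genes. The medians of the last 3 lists had opposite signs with the siRNAs. This did not hold after median centring for the signalling list (0.25 and 0.065) or without the filter on dim probes for the mesenchymal list (-0.0083 and -0.057). None of their genes passed an adjusted p of 0.05 in limma. At an unadjusted p under 0.05, 1 was higher and 2 lower of 30 epithelial genes, and 3 and 5 of 24 mesenchymal genes. The counts were 3 and 3 of 20 regulators and 2 and 3 of 20 signalling genes. Over all genes 11% were higher and 9.91% lower at this p. None was at least 2-fold higher with either siRNA (0.208% of all genes with siRNA 1 and 0.614% with siRNA 2). At least 2-fold lower with siRNA 1 (0.609% of all genes) were 1 epithelial gene, 1 regulator and 1 signalling gene, and with siRNA 2 (1.07% of all genes) 3 mesenchymal genes.

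**Figure D5:**
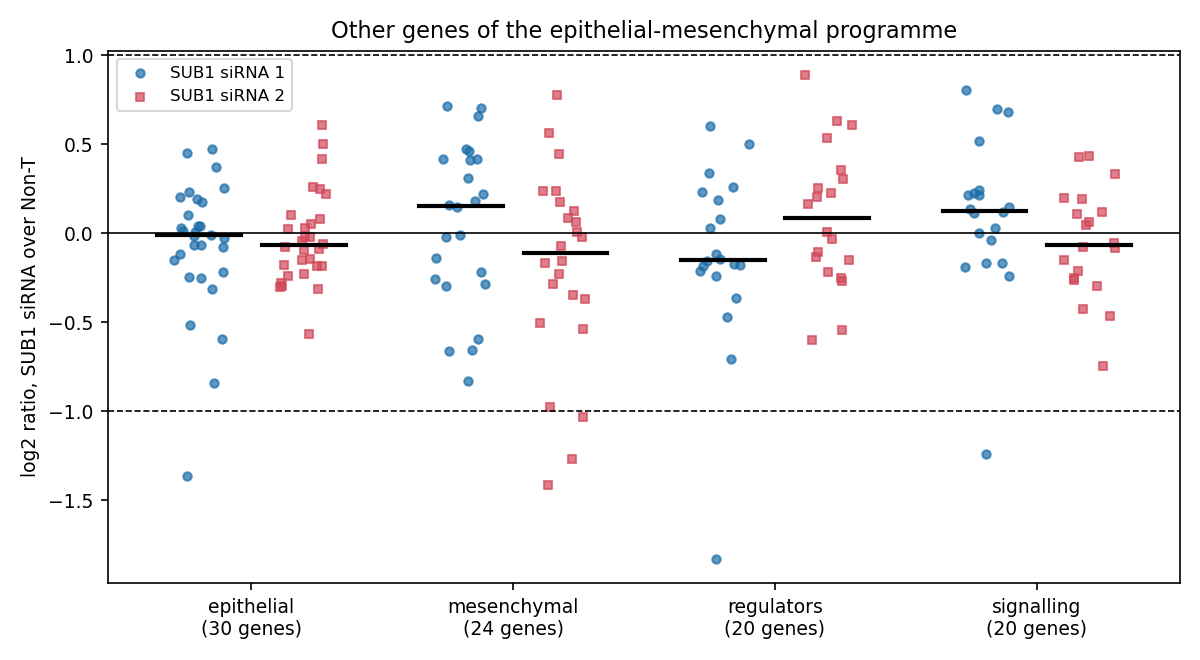
Log2 ratio over Non-T siRNA (y axis) of each measured gene of the 4 lists (x axis) with SUB1 siRNA 1 (circles) and SUB1 siRNA 2 (squares). Black bars are list medians, which lie between -0.15 and 0.15, and dashed lines mark a 2-fold change. The genes below the lower dashed line are MAL2, TCF3 and FST with siRNA 1, and CDH11, CD44 and SPARC with siRNA 2.

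The mesenchymal genes past 2-fold were all lower with siRNA 2. CDH11, a cadherin of mesenchymal cells, had log2 signals of 9.44 and 9.38 in Non-T cells, 8.78 with siRNA 1 and 7.97 with siRNA 2, or ratios of -0.65 and -1.42. CD44, a receptor for hyaluronan, had 11.63 and 11.64 in Non-T cells, 10.80 with siRNA 1 and 10.61 with siRNA 2, or ratios of -0.83 and -1.04. For both genes each knockdown signal was below both Non-T signals, and the adjusted p in limma was 0.130 for CDH11 and 0.112 for CD44. After median centring CD44 had -0.78 with siRNA 2 and was no longer past 2-fold. SPARC, a secreted matrix glycoprotein, had 9.10 and 9.11 in Non-T cells, 9.81 with siRNA 1 and 7.84 with siRNA 2. Its ratios of 0.70 and -1.27 pointed in opposite directions. AXL, a receptor tyrosine kinase, had -0.66 and -0.54. The matrix genes THBS1 (0.72 and 0.78), COL1A1 (0.66 and 0.45) and FBN1 (0.31 and 0.56) were higher with both siRNAs, in contrast to FN1, with adjusted p of 0.112, 0.129 and 0.157 in limma. A dimmer THBS1 probe had smaller ratios of 0.23 and 0.29.

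Among epithelial genes, MAL2, a membrane protein of apical transport, had log2 signals of 12.62 and 12.66 in Non-T cells, 11.26 with siRNA 1 and 12.74 with siRNA 2. The siRNA 1 signal alone was below the others, with a ratio of -1.36 beside 0.079 for siRNA 2. ESRP2, an epithelial splicing regulator, had -0.52 and -0.57, and the tight junction gene CLDN4 had -0.59 and -0.32, so both were on the other side of 0 from CDH1. The desmosomal genes PKP3 (0.25 and 0.25) and DSP (0.47 and 0.052) and the tight junction gene TJP1 (0.45 and 0.499) had the higher mean ratios of the list. The Non-T signals of DSP differed between the arrays (7.87 and 6.52), and a second TJP1 probe had -0.63 and -0.22, opposite to the brighter one.

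TCF3, which encodes the E proteins E12 and E47, partners of basic helix-loop-helix factors such as TWIST1, had log2 signals of 11.29 and 11.30 in Non-T cells, 9.46 with siRNA 1 and 10.76 with siRNA 2. The ratios were -1.83 and -0.54, a second TCF3 probe had -1.12 and -0.20, and the adjusted p in limma was 0.163. FBXW7, a ubiquitin ligase subunit, had 0.60 and 0.61, with a dimmer probe at 0.12 and 0.23. The corepressor CTBP1 had 0.34 and 0.25, with dimmer probes at 0.22 and -0.030, and at 0.13 and 0.16. FOXC2 had 0.26 and 0.30, while FOXC1 had -0.37 and -0.27 and PAK1 -0.17 and -0.600. The Non-T signals of PAK1, a dim probe, differed between the arrays (6.85 and 7.13). The dimmer FOXC1 probes had 0.088 and 0.012, and 0.091 and 0.21, on the other side of 0. In the signalling list FST, which encodes the activin antagonist follistatin, had 13.02 and 13.00 in Non-T cells, 11.78 with siRNA 1 and 12.74 with siRNA 2, or ratios of -1.24 and -0.26. After median centring FST was -0.95 with siRNA 1, no longer past 2-fold, and 0.071 with siRNA 2. INHBA, which encodes an activin subunit, had -0.24 and -0.74, and LTBP3 -0.19 and -0.42. The Notch target HES1 had 0.80 and 0.33, with a second probe at 0.89 and 0.26. SKI, a repressor of SMAD signalling, had 0.69 and 0.44, and the receptor gene TGFBR2 0.68 and 0.11. Dimmer probes of TGFBR2 (0.15 and -0.17) and SKI (0.27 and -0.24) had the sign of the brighter ones with siRNA 1 only, and were smaller there. A further SKI probe (-0.022 and -0.12) and the dimmer LTBP3 probe (0.18 and 0.39) had the opposite sign with both siRNAs.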

How the data were processed

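Arrays scanned by the authors were read with Feature Extraction 9.5.1.1, and the authors deposited, per spot, the intensity and local background in both channels and processed intensities after spatial, background and dye correction, and a table of log2 ratios after loess with agilp in R. Probe coordinates are those of hg18, per the file headers, and no exon annotation of that build was used here. Here the mean intensity of a spot was corrected by normexp (offset 50) against its median local background and normalized by loess (span 0.3) within each array in limma 3.58.1 under R 4.3.3. Control and outlier-flagged spots (112 and 100) were left out and spots of a probe were averaged. No spot was saturated. Signals per channel were taken after Aquantile normalization, which keeps the ratios. A probe passed if a share of at least 0.5 of its spots stood well above background in 1 or both channels of each array (25673 of 41000), and the brightest probe stood for a gene. Genes were named through RefSeq (GRCh38.p14), where 23958 probes matched by accession, 2755 by symbol and 1032 by synonym and the rest kept the name of the files.

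A gene counted as changed at 2-fold, the rule of the methods, with no test for 1 array. The mean ratio of both siRNAs was tested against 0 with limma (lmFit, eBayes, Benjamini-Hochberg over 19218 genes), with no term for the spread of the control. The number of arrays limits the precision. The fit was tested on simulated data. The members and lists were chosen with earlier results of these data known. Named genes were all members, SUB1, and of each list the 3 highest and 3 lowest mean ratios and those past 2-fold. No likeness of patterns was ranked, since there are only 2 ratios per gene. Alternatives were other background corrections, median centring, processed signals, the authors' log2 ratios, other filters, kept outliers, averaged probes and other variance priors. The direction of the authors' log2 ratios was checked against the scanner files (Pearson correlation across probes 0.960 and 0.970).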

Additional observations from a re-analysis of the deposited data

Results flagged for a closer look

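Among the members and the genes named from the lists, 4 had ratios of opposite sign with the siRNAs, each larger than the technical SD of its probe. Over all 19218 genes, 7313 were above 0 and 5831 below 0 with both siRNAs, and the rest did not share a sign. How many of the rest also passed the technical SD was not counted. The difference between the siRNAs was not tested, since each has 1 array. EPCAM was lower with siRNA 2 than with siRNA 1 by a log2 difference of -0.43, from 0.28 with siRNA 1 to -0.14 with siRNA 2. TWIST1 had a difference of -0.38, from 0.088 to -0.29, and its Non-T signals differed by 0.23 between the arrays. SPARC had a difference of -1.97, from 0.70 to -1.27. MAL2 had a difference of 1.44, from -1.36 to 0.079. Other genes of the lists, chosen after their values were seen, also had opposite signs with siRNA 1 and siRNA 2. Among them were ID1 (-0.71 and 0.63) and ID3 (-0.47 and 0.89), which encode inhibitors of basic helix-loop-helix factors, the epithelial factor ELF3 (-0.25 and 0.61) and the catenin gene CTNNB1 (0.37 and -0.30).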

How the results depend on the processing

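No member reached 2-fold with either siRNA under any alternative, with 1 exception. With Feature Extraction's processed signals the count for siRNA 1 was 1 (CDH1, 1.06) in place of 0, while the share of all genes past 2-fold rose from 0.817% to 5.59% (1075 genes) with siRNA 1 and from 1.68% to 7.64% (1468 genes) with siRNA 2. The cause was not tested. In limma 0 of the members passed an adjusted p of 0.05 under all 12 alternatives, and the lowest adjusted p was 0.0774 (CDH2); over all genes the count fell from 1 to 0 without background correction, with median signals, median centring, processed signals or the authors' log2 ratios, where 4081, 4022, 5707, 3890 and 4141 genes had an unadjusted p under 0.05 (4013 as reported). Single ratios of members under an alternative moved by no more than the technical SD in 165 cases and by more in 33. Many of the 165 repeat the reported value, since other filters and kept outliers changed no member ratio that they gave. Averaged probes changed none for members with 1 probe past the filter. After median centring, all genes had a median of 0.13 (siRNA 1) and 0.12 (siRNA 2). FN1, CDH2 and TWIST1 kept their sign with each siRNA under all 10 alternatives, as did CDH1, EPCAM, SNAI1 and (under 9) ZEB1 with siRNA 1 and VIM and SNAI2 with siRNA 2. ZEB1 gave no value where both channels had to be above background. The mesenchymal list median with siRNA 1 was -0.0083 without the filter on dim probes and 0.36 after median centring. No paired analysis was possible because, beyond the pairing of knockdown with control that every ratio holds, nothing matches samples by number. With 1 siRNA left out the other has a ratio and no test, and the arrays share 1 slide number, so no block could be fitted. ZEB1 (on the siRNA 2 array) and the dimmer TWIST1 and FN1 probes (on both) had Non-T signals not well above background.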
